A study of Homo sapiens with 29 samples.

Results

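Collagen genes were followed by RNA sequencing through oncogene-induced senescence and through the loss of SMARCA4 in senescent cells. A collagen gene was any gene whose symbol has the form COL, a number, A and a number, which names the collagen alpha chains. The count table held 44 such symbols among 28266. They were placed in 4 groups by the kind of collagen they encode, with 11 fibrillar, 8 basement membrane, 10 FACIT (fibril-associated, with interrupted helices) and 15 other collagens. Counts were high enough to test 30 of the 44, among 13136 genes tested in all.

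The cells were IMR90 ER:RAS, an established human lung fibroblast line infected with a retrovirus that carries oncogenic RAS fused to the estrogen receptor. The drug 4-hydroxytamoxifen (4OHT) switches the fusion on and brings on senescence, and DMSO is its solvent control. Control cells given DMSO and a non-targeting siRNA are DMSO_siNT, senescent cells given 4OHT and a non-targeting siRNA are 4OHT_siNT, and 4OHT_siSMARCA4 are 4OHT-treated cells in which siRNA targeted SMARCA4, an ATPase of the SWI/SNF chromatin remodelling complex, all labelled day 7 and each with 6 libraries. Each arm used 2 siRNAs, numbered 2 and 4, and set names such as 2V or 2VM tell the libraries apart. The labels do not say what V and VM mean or whether sets were separate cultures, so p-values measure the spread between these libraries. Set names were uneven over the groups, since every 4OHT_siNT library was VM, those of DMSO_siNT were split 3 to 3, and 4OHT_siSMARCA4 comprised 3 V, 2 VM and 1 that matched no label beyond its group (called unlabelled). The column name of that library holds siRNA 2 and set 1VM, but no label gives that set for that siRNA in its group. It was taken as siRNA 2 in the fits by siRNA and left out of the VM sets unless said otherwise.

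Collagen chains wind together as trimers in the endoplasmic reticulum after enzymes have hydroxylated their prolines and lysines. Fibrillar collagens such as types I, III, V and XI are secreted with propeptides, are trimmed outside the cell and assemble into banded fibrils that lysyl oxidases crosslink. Type IV forms the sheet of the basement membrane, FACIT collagens decorate fibrils, type VI builds beaded microfilaments around cells, type VII makes the anchoring fibrils under epithelia, and type X belongs to the growth plate. Fibroblasts are the main source of interstitial collagen in the lung.

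Total counts were 9657309 to 18039313 per library. Levels are in CPM, counts relative to a library size that edgeR adjusts by TMM. The siRNA target, SMARCA4, lay between 274.8 and 329.9 CPM in 4OHT_siNT and between 70.4 and 140.7 CPM in 4OHT_siSMARCA4, without overlap. The cells carried fibroblast transcripts, with 8 of 8 marker genes above 1 CPM in every group. They summed to 9822 to 18361 CPM in DMSO_siNT, 12178 to 20118 CPM in 4OHT_siNT and 8983 to 14941 CPM in 4OHT_siSMARCA4. VIM and FN1 had higher means in 4OHT_siNT than in DMSO_siNT. PDGFRA, PDGFRB, THY1, LUM, FBN1 and DCN had lower means in both 4OHT groups, DCN with 625.3, 17.4 and 11.0 CPM in that order. The epithelial markers KRT5 and SFTPC were at 0 counts in all libraries. The 5 epithelial markers, led by CLDN4, summed to between 5.415 and 11.36 CPM in DMSO_siNT, between 2.622 and 3.343 CPM in 4OHT_siNT, and between 0.8079 and 2.993 CPM in 4OHT_siSMARCA4. The 5 endothelial markers, led by VWF, summed to 1.568 to 3.506 CPM, 5.173 to 9.143 CPM and 2.074 to 8.413 CPM in that order. The part of these lists in the collagen results was not tested. Leukocyte markers summed to at most 0.598 CPM in any library. One library stood apart. DMSO_siNT 4-2V had 29.5 CPM of ESR1, the receptor whose ligand-binding domain the transgene carries, against 1034 to 1316 CPM in the other 5 DMSO_siNT libraries. The RAS gene HRAS was at 436.5 CPM there, against 2165 to 2852 CPM in those 5. Whether its cells carried the transgene as the others did was not tested. In that library 19 of the 30 tested collagen genes were lower than in each of those 5. Collagen calls made or lost by leaving this library out are named below. It was also the lowest DMSO_siNT library for several genes that rose in senescence, namely COL4A1, COL4A2, COL4A5, COL4A6, COL5A3, COL6A1, COL18A1 and COL24A1. The sizes of those rises depend in part on it, and of these genes only COL4A1 and COL4A2 have the rise given without it.

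Collagen genes took a similar share of all counts in DMSO_siNT and 4OHT_siNT and a smaller one in 4OHT_siSMARCA4. The lowest, median and highest shares were 1.20%, 3.43% and 3.90% in DMSO_siNT, 2.697%, 3.11% and 3.62% in 4OHT_siNT, and 1.51%, 2.04% and 2.48% in 4OHT_siSMARCA4. Every 4OHT_siSMARCA4 library lay below every 4OHT_siNT library, and the lowest DMSO_siNT value was that of 4-2V. The make-up of the share differed more than its size. Type I chains made up between 41.4% and 64.1% of collagen counts in DMSO_siNT, between 26.4% and 33.8% in 4OHT_siNT, and between 12.5% and 23.3% in 4OHT_siSMARCA4. Type VI chains, from COL6A1, COL6A2 and COL6A3, made up 21.3% to 42.7%, 47.8% to 52.0% and 58.5% to 65.7% in the same order. For both types the ranges of the 3 groups did not overlap. DMSO_siNT 4-2V had the lowest type I and the highest type VI value of its group. The other DMSO_siNT libraries held 55.2% to 64.1% and 21.3% to 27.9%. RNA was measured in bulk, so fewer cells of a kind and less RNA per cell cannot be told apart.

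**Figure D1:**
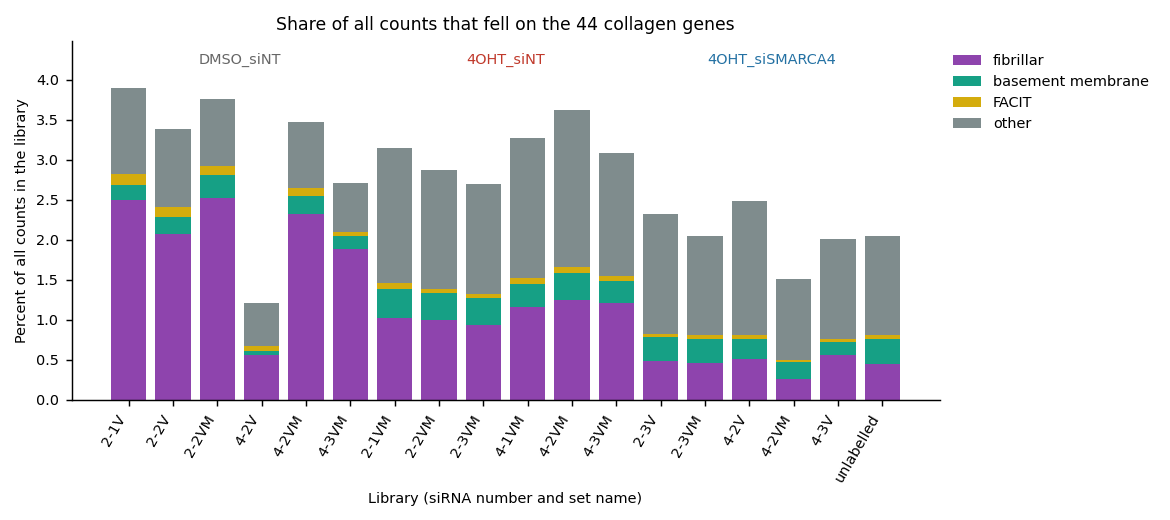
Share of all counts, in percent, that fell on the 44 collagen genes in each of the 18 libraries, stacked by kind of collagen. Fibrillar collagens (purple) fill most of the bar in 5 of the 6 DMSO_siNT libraries and type VI-rich other collagens (grey) most of it in 4OHT_siSMARCA4, and DMSO_siNT 4-2V reaches only 1.20%.

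Levels of different genes were compared per kilobase of annotated exon. COL1A1 stood first in DMSO_siNT with a mean of 1187 CPM per kb, ahead of COL1A2 with 613 and COL6A2 with 540. In 4OHT_siNT the order began with COL6A2 at 1157, COL6A1 at 900 and COL1A1 at 783 CPM per kb. In 4OHT_siSMARCA4 it began with COL6A2 at 1026 and COL6A1 at 843, and COL1A1 followed at 293. Over all libraries COL6A2, COL1A1, COL6A1, COL1A2 and COL6A3 held ranks 1 to 5 whether exon or coding length was used.

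The first comparison asked what senescence does to collagen transcripts. In 4OHT_siNT over DMSO_siNT, 14 of the 30 tested collagen genes were called higher (46.7%, against 23.9% of all genes tested) and 10 lower (33.3%, against 28.9% of all genes tested), by the quasi-likelihood test of edgeR at an adjusted p under 0.05. Their median log2 fold change was 0.59, beside -0.05 over all genes tested. Basement membrane collagens had 5 higher and 1 lower of 6 tested, other collagens 5 higher and 3 lower of 8, fibrillar collagens 3 higher and 3 lower of 10, and FACIT collagens 1 higher and 3 lower of 6. The libraries of the 2 groups did not overlap for 20 of the 30, against 33.8% of all genes tested. All 24 calls held in the VM sets alone, where 15 of 31 tested were higher and 11 lower, against 25.65% and 27.9% of all genes. With the set letters as a covariate 22 held, and COL18A1 (0.55, adjusted p = 0.0764, edgeR) and COL4A2 were lost. With siRNA 4 alone 19 held, and COL1A2, COL5A2, COL9A2, COL13A1 and COL4A2 were lost. That fit called 13 of 30 higher and 6 lower, against 16.2% and 19.4% of all genes. Without DMSO_siNT 4-2V the counts were 15 higher and 12 lower, against 27.95% and 30.3% of all genes.

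**Figure D2:**
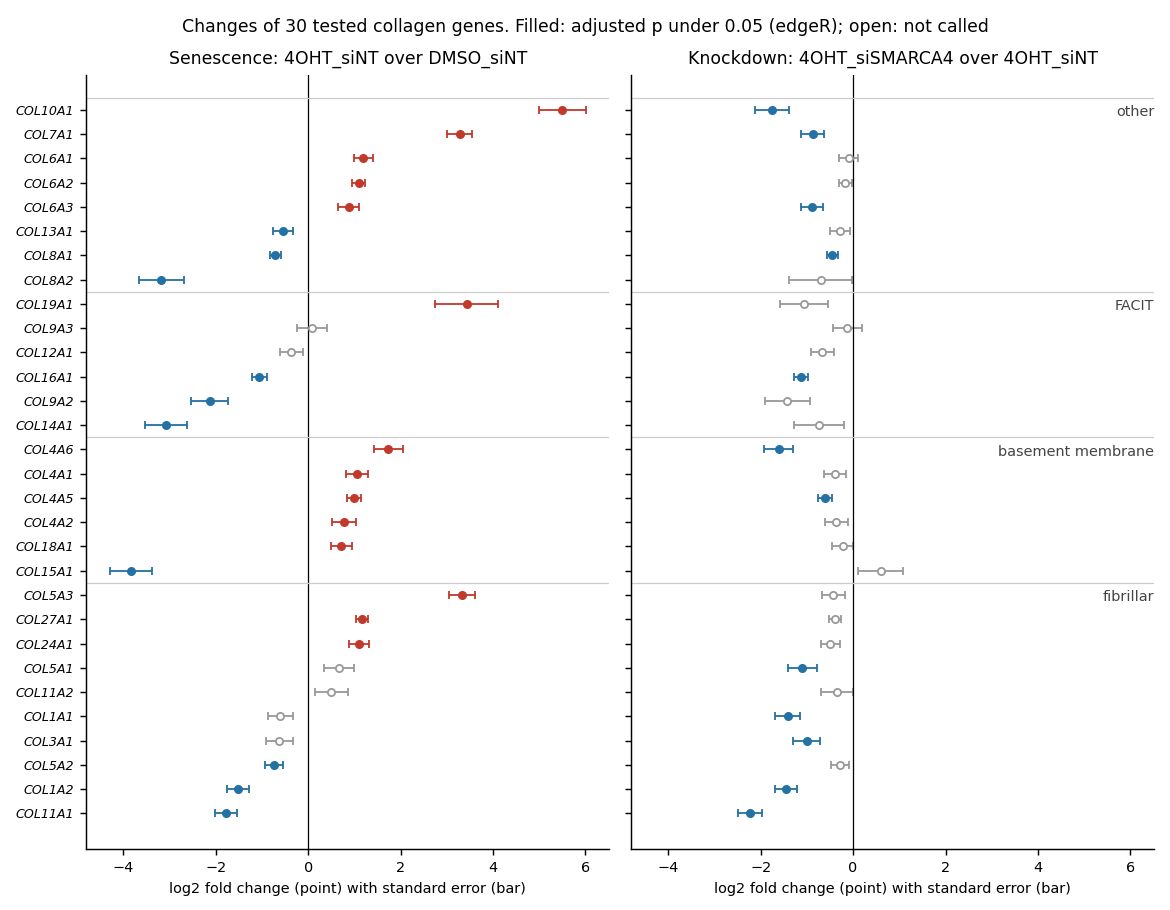
Log2 fold change (point) and its standard error (bar) of the 30 tested collagen genes in senescence (left) and after SMARCA4 knockdown in senescent cells (right), on the same scale and grouped by kind of collagen. Points in senescence spread from -3.83 to 5.50, and after knockdown 29 of 30 lie below 0.

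Among the fibrillar collagens, the chains of the main interstitial fibrils were not called higher. COL1A2 (chromosome 7, 94394895 to 94431227, plus strand, GRCh38), the alpha 2 chain of type I collagen, had a lowest, median and highest level of 2585, 6964 and 8434 CPM in DMSO_siNT and 1910, 2314 and 2727 CPM in 4OHT_siNT. Apart from DMSO_siNT 4-2V, no DMSO_siNT library came near the 4OHT_siNT range. The gene fell by 1.52 on the log2 scale (SE 0.24, adjusted p = 2.44e-05, edgeR).

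COL1A1 (chromosome 17, 50184101 to 50201632, minus strand), the alpha 1 chain of type I, was at 3155, 11637 and 14727 CPM in DMSO_siNT and at 5691, 6925 and 8481 CPM in 4OHT_siNT. Its log2 fold change of -0.60 (SE 0.27) did not pass the test (adjusted p = 0.071, edgeR). The call rested on 1 library: without DMSO_siNT 4-2V the value was -0.78 (adjusted p = 0.000955, edgeR), and all 4OHT_siNT libraries lay below the remaining 5. COL3A1 (chromosome 2, 188974373 to 189012746, plus strand), which forms the homotrimer of type III, was not called either. Its levels were 250.4, 799.8 and 1404 CPM in DMSO_siNT and 456.9, 480.6 and 622.8 CPM in 4OHT_siNT, and its log2 fold change was -0.62 (adjusted p = 0.0769, edgeR) with and -0.80 (adjusted p = 0.00345) without that library. Its groups overlapped.

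Minor fibrillar chains split. COL11A1 (chromosome 1, 102876467 to 103108872, minus strand), a chain of type XI that helps set fibril width, was at 20.2, 38.3 and 55.0 CPM in DMSO_siNT and 9.96, 11.3 and 11.9 CPM in 4OHT_siNT. It fell by 1.77 on the log2 scale (SE 0.23, adjusted p = 3.28e-06, edgeR) with no overlap. COL5A2, a type V chain, fell by 0.74. COL5A3 (chromosome 19, 9959561 to 10010504, minus strand), the third chain of type V, went the other way, from 2.63, 11.9 and 15.0 CPM to 86.2, 110.3 and 120.6 CPM, a rise of 10.1-fold (log2 3.33, SE 0.28, adjusted p = 1.03e-08). COL27A1 and COL24A1, fibrillar collagens of types XXVII and XXIV, rose by 1.18 and 1.10 on the log2 scale. COL5A1 had 0.67 with an adjusted p = 0.0823 (edgeR), which was 0.46 (adjusted p = 0.0304) without DMSO_siNT 4-2V and 0.93 (adjusted p = 0.0152) without DMSO_siNT 2-2VM. COL11A2, at about 1 CPM in DMSO_siNT (mean 1.22), was not called.

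Of the type IV chains, 4 of 4 tested were called higher. COL4A1 and COL4A2, which join in the commonest type IV trimer, lie head to head on chromosome 13 (110148963 to 110307157, minus strand, and 110305812 to 110513209, plus strand) and are read from a shared promoter. COL4A1 was at 195.7, 536.3 and 865.1 CPM in DMSO_siNT and 965.5, 1156 and 1311 CPM in 4OHT_siNT, and COL4A2 at 239.0, 784.7 and 1281 CPM and then 1156, 1332 and 1519 CPM. The groups were apart for COL4A1 and overlapped for COL4A2. The rises were 1.06 (SE 0.24, adjusted p = 0.00108, edgeR) and 0.77 (SE 0.26, adjusted p = 0.0168) on the log2 scale. DMSO_siNT 4-2V was the lowest library for both, and without it the rises were 0.90 and 0.59. The call of COL4A2 was lost with the set letters as a covariate (0.62, adjusted p = 0.0922, edgeR) and with siRNA 4 alone (1.09, adjusted p = 0.07).

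A stretch between the RefSeq starts of COL4A1 and COL4A2 is shown because the pair lie head to head there. The GENCODE start of COL4A2, given above, lies further upstream, inside COL4A1. The stretch is the plus strand of chr13:110307158-110307257 in the RefSeq promoter table (GRCh38.p14), 100 bases with a GC content of 78.0%.
COL4A1/COL4A2: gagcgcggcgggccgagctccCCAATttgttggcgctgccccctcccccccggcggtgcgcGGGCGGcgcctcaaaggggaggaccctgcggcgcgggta
Capitals mark the CCAAT and GGGCGG letters in it. Of 4 motifs searched on both strands, CCAAT was in 34.6% of all 35116 promoter windows of the table (250 bases before to 50 after a start), GGGCGG in 45.0%, TATAAA in 11.5% and TGANTCA in 7.71%. Of the 44 windows that belong to 32 collagen genes, 14 held CCAAT, 24 GGGCGG, 8 TATAAA and 1 TGANTCA. A match is only a description of the letters.

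COL4A5 and COL4A6, another head-to-head pair, on the X chromosome, rose by 0.99 (SE 0.16) and 1.74 (SE 0.32). COL4A6 was at 2.51, 9.60 and 24.1 CPM in DMSO_siNT and 29.8, 38.2 and 44.7 CPM in 4OHT_siNT, with no overlap (adjusted p = 0.000133, edgeR). COL4A3 and COL4A4, the remaining type IV genes, had at most 3 and 2 counts in any library.

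Types XV and XVIII, the basement membrane collagens that release antiangiogenic fragments, moved apart. COL15A1 (chromosome 9, 98943179 to 99070792, plus strand) was at 5.46, 13.8 and 40.6 CPM in DMSO_siNT and 0.887, 1.067 and 1.64 CPM in 4OHT_siNT, the largest fall of any tested collagen gene at 14.2-fold (log2 -3.83, SE 0.46, adjusted p = 8.83e-07, edgeR). COL18A1 was at 162.1, 414.3 and 497.6 CPM and then at 588.9, 642.0 and 687.7 CPM, a rise of 0.72 (SE 0.22, adjusted p = 0.00997) with the groups apart. COL18A1 shares 18.5% of its exon bases with SLC19A1 on the opposite strand. The library kit keeps strand but whether the counting used it is not given in the sources used here, so reads of the pair may not be told apart.

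FACIT collagens fell more than they rose. COL14A1, which binds fibril surfaces, had 2.04, 5.39 and 18.03 CPM in DMSO_siNT and 0.415, 0.801 and 1.23 CPM in 4OHT_siNT, a fall of 3.08 (SE 0.46, adjusted p = 1.40e-05, edgeR), which was 2.48 without DMSO_siNT 2-1V, its highest library. COL9A2, a chain of type IX, fell from 2.27, 4.16 and 12.1 CPM to 0.703, 0.992 and 1.84 CPM (log2 -2.13, SE 0.40, adjusted p = 0.000173). COL16A1 fell from 147.3, 203.9 and 262.3 CPM to 92.0, 94.8 and 104.3 CPM (log2 -1.06, SE 0.16, adjusted p = 1.25e-05). For each of these 3 genes every 4OHT_siNT library was below every DMSO_siNT library.

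COL12A1, the most abundant FACIT gene per kilobase, was at 357.1, 781.8 and 1119 CPM in DMSO_siNT and 479.9, 608.8 and 696.6 CPM in 4OHT_siNT. The groups overlapped and its change of -0.36 (SE 0.25) was not called (adjusted p = 0.227, edgeR). COL19A1, a collagen of type XIX, went from 0 counts in 4 of 6 DMSO_siNT libraries to 15 to 32 counts in 4OHT_siNT. It rose by 3.43 (SE 0.68, adjusted p = 0.000296, edgeR), and by 5.18 without DMSO_siNT 2-2VM, which held 8 of the counts.

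The other collagens held the most abundant genes that rose. COL6A1 and COL6A2, neighbours on chromosome 21, and COL6A3 on chromosome 2 encode the 3 main chains of type VI. COL6A1 was at 934.5, 2333 and 3072 CPM in DMSO_siNT and 4044, 4808 and 6258 CPM in 4OHT_siNT, COL6A2 at 2372, 2894 and 3571 CPM and then 5242, 5910 and 7799 CPM, and COL6A3 at 1584, 2698 and 3464 CPM and then 3830, 4968 and 5737 CPM. All 3 were apart between the groups. They rose by 1.19 (SE 0.21), 1.10 (SE 0.14) and 0.87 (SE 0.23) on the log2 scale, with adjusted p-values of 7.24e-05, 2.33e-06 and 0.00417 (edgeR).

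COL7A1 (chromosome 3, 48564073 to 48595329, minus strand), the anchoring fibril collagen, was at 44.5, 51.1 and 77.3 CPM in DMSO_siNT and 401.3, 499.2 and 732.3 CPM in 4OHT_siNT. The rise was 9.73-fold (log2 3.28, SE 0.27, adjusted p = 5.61e-09, edgeR). COL10A1 (chromosome 6, 116118909 to 116158747, minus strand), the type X collagen of hypertrophic cartilage, was at 0, 0.343 and 1.55 CPM and then 13.2, 18.6 and 22.6 CPM. This was the largest rise of any tested collagen gene, at log2 5.50 (SE 0.50, adjusted p = 2.47e-08), and 6.23 without DMSO_siNT 4-2V, which held the most counts of that group, 13.

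COL8A2, a chain of the short-chain type VIII network, fell from 1.08, 2.05 and 3.29 CPM to 0, 0.246 and 0.445 CPM (log2 -3.18, SE 0.48, adjusted p = 1.66e-05, edgeR), and its partner COL8A1 fell by 0.71 (SE 0.12). Both were apart between the groups. COL13A1, a membrane collagen, had -0.55 with an adjusted p = 0.0425 (edgeR), a call that was lost when any of 14 libraries was left out (adjusted p up to 0.131), that is any but DMSO_siNT 2-1V and 4-2V and 4OHT_siSMARCA4 2-3V and 4-3V, and that held in the VM sets alone at -0.94. The smooth muscle list, which fibroblasts also express when contractile, summed to between 408.9 and 1203 CPM in DMSO_siNT, between 183.4 and 236.3 CPM in 4OHT_siNT, and between 104.0 and 156.4 CPM in 4OHT_siSMARCA4, with ACTG2 or ACTA2 highest. Its part in the collagen changes was not tested.

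**Figure D3:**
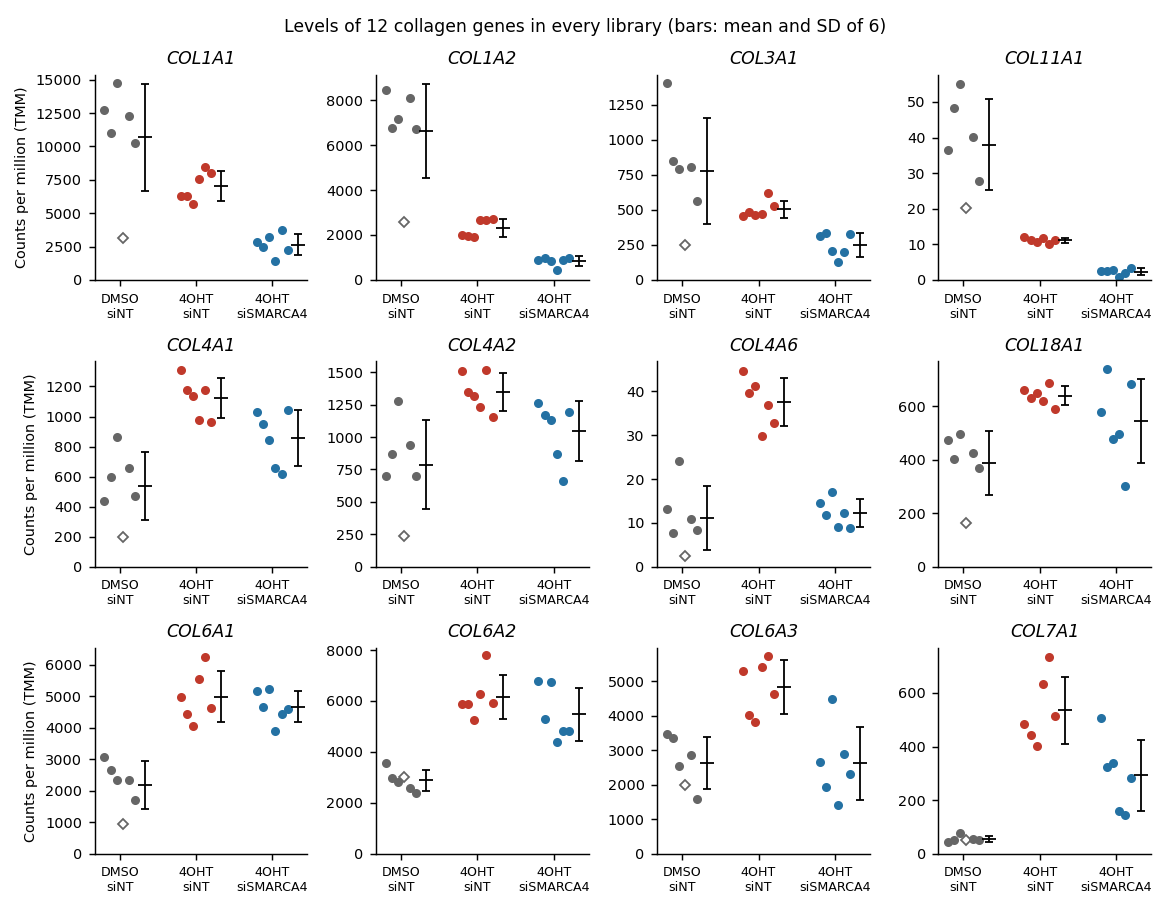
Level, in CPM, of 12 collagen genes in each of the 18 libraries (points), with the mean and SD of 6 (black bars) on axes that start at 0. The open diamond is DMSO_siNT 4-2V, which is the lowest DMSO_siNT library in 9 of the 12 panels, and COL11A1 steps down from one group to the next while COL6A1 and COL6A2 stay high in both 4OHT groups.

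For 3 genes that differed in direction or size in senescence, 120 bases before the start are given from the same table, 5′ to 3′ on the strand of the gene. They are COL11A1, which fell in senescence and again after knockdown (chr1:103108523-103108642, minus strand), and COL7A1 (chr3:48595330-48595449, minus strand) and COL5A3 (chr19:10010505-10010624, minus strand), which rose in senescence.
COL11A1: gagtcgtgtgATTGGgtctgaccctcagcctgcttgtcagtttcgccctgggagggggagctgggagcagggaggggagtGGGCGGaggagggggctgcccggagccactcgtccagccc
COL7A1: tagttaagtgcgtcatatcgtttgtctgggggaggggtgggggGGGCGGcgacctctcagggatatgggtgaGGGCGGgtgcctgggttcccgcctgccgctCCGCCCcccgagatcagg
COL5A3: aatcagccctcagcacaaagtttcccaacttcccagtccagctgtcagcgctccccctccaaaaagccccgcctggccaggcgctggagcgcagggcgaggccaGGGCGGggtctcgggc
Capitals mark the same motifs on either strand. The COL11A1 stretch held 1 CCAAT and 1 GGGCGG, that of COL7A1 held 3 GGGCGG and that of COL5A3 held 1 GGGCGG.

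The second comparison asked how SMARCA4 knockdown changes collagen transcripts in senescent cells. In 4OHT_siSMARCA4 over 4OHT_siNT, 12 of the 30 tested collagen genes were called lower (40.0%, against 5.65% of all genes tested) and 0 higher (against 4.99% of all genes tested), by the edgeR test at an adjusted p under 0.05. At an unadjusted p under 0.05, 0 were higher too. DESeq2 also called 0 higher (against 6.86% of all genes tested), and called 15 lower (against 7.88%). The median log2 fold change of collagen genes was -0.64, beside 0.01 over all genes tested. The fitted value was below 0 for 29 of the 30, the exception being COL15A1 at 0.60 (SE 0.48), which was not called. Calls were spread over all kinds, with 5 of 10 fibrillar, 2 of 6 basement membrane, 1 of 6 FACIT and 4 of 8 other collagens. All 12 calls held in the VM sets alone, to which every 4OHT_siNT library belongs but only 2 of 4OHT_siSMARCA4, 2-3VM and 4-2VM. There 15 of 31 tested were lower against 12.2% of all genes. With the set name as a replicate block, 2 of the 12 held, COL10A1 and COL11A1, where 1.13% of all genes were lower. With the set letters as a covariate, which leaves out the unlabelled library, 7 of the 12 held and 8 of 30 were lower against 4.31% of all genes. COL3A1 (-1.18), COL4A5 (-0.63), COL4A6 (-1.36), COL5A1 (-0.95) and COL7A1 (-0.86) lost their calls there, with adjusted p-values of 0.0667, 0.0678, 0.0646, 0.236 and 0.15 (edgeR). The VM sets with the unlabelled library, a choice made after seeing the data, gave 17 of 31 lower, against 16.7% of all genes, and COL15A1 higher (1.08, adjusted p = 0.0338). Leaving out 1 library at a time gave 9 to 16 lower and 0 higher. The highest count came without DMSO_siNT 4-2V, where 12.9% of all genes were lower and 11.7% higher. This comparison and the one before share the 4OHT_siNT libraries.

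Type I collagen fell in both chains. COL1A1 was at 1411, 2637 and 3723 CPM in 4OHT_siSMARCA4, all below the lowest 4OHT_siNT library at 5691 CPM, and COL1A2 at 442.3, 892.2 and 998.1 CPM, all below 1910 CPM. The falls were 1.42 (SE 0.28, adjusted p = 0.00255, edgeR) and 1.46 (SE 0.24, adjusted p = 0.000618) on the log2 scale, or 2.67-fold and 2.75-fold. In the VM sets alone, with 2 libraries of 4OHT_siSMARCA4, they were 1.89 and 1.72.

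COL11A1 changed most of all tested collagen genes. Its levels of 0.692, 2.54 and 3.31 CPM lay below every 4OHT_siNT library, a fall of 4.72-fold (log2 -2.24, SE 0.26, adjusted p = 4.00e-05, edgeR). COL3A1 fell from 456.9, 480.6 and 622.8 CPM to 130.8, 260.9 and 333.4 CPM (log2 -1.01, SE 0.29, adjusted p = 0.0311) and COL5A1 from 732.5, 782.6 and 890.7 CPM to 244.4, 356.3 and 507.6 CPM (log2 -1.10, SE 0.32, adjusted p = 0.0314). Both groups were apart, yet leaving out any of 6 libraries for COL3A1 or any of 7 for COL5A1 raised the adjusted p to between 0.05 and 0.0774. The libraries were 4OHT_siNT 4-1VM, 4-2VM and 4-3VM and 4OHT_siSMARCA4 4-2V, 4-2VM and 4-3V for COL3A1, and 4OHT_siNT 2-1VM, 4-1VM and 4-2VM and 4OHT_siSMARCA4 2-3VM, 4-2VM, 4-3V and the unlabelled library for COL5A1. Of the other fibrillar genes, COL27A1 had -0.39 (adjusted p = 0.0544), which passed the test without DMSO_siNT 2-2VM, 4-2V or 4-3VM, 4OHT_siNT 4-3VM, or 4OHT_siSMARCA4 2-3V or 4-2V (adjusted p down to 0.0153), COL24A1 had -0.49 (adjusted p = 0.142, and 0.0409 without DMSO_siNT 4-2V), and COL5A2 and COL5A3 had -0.28 and -0.43 and were not called.

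In the basement membrane group the calls were those of the X-linked pair, which were lost with the set letters as a covariate as given above. COL4A6 was at 8.89, 12.1 and 17.1 CPM, below every 4OHT_siNT library (log2 -1.61, SE 0.32, adjusted p = 0.00264, edgeR), and COL4A5 at 52.0, 73.7 and 81.1 CPM against 92.2, 111.8 and 122.4 CPM (log2 -0.61, SE 0.15, adjusted p = 0.0152). COL4A1 was at 616.3, 897.5 and 1041 CPM and COL4A2 at 662.1, 1151 and 1264 CPM, ranges that overlapped 4OHT_siNT, and their values of -0.39 (SE 0.24) and -0.36 (SE 0.26) were not called. COL18A1, at 300.4, 536.3 and 739.1 CPM, was not called either.

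COL16A1 was the FACIT gene that fell, to 25.9, 44.8 and 58.6 CPM, below every 4OHT_siNT library (log2 -1.13, SE 0.16, adjusted p = 0.000177, edgeR). COL12A1, at 186.9, 368.8 and 506.0 CPM, had -0.67 (SE 0.25, adjusted p = 0.0947), which was called without DMSO_siNT 4-2V (-0.68, adjusted p = 0.0338) and in the VM sets alone (-1.03, adjusted p = 0.0241). COL9A2, at 0.0825, 0.372 and 0.867 CPM, had -1.43 (SE 0.49, adjusted p = 0.0668). Its call came and went with single libraries, and the adjusted p was 0.0205 to 0.0429 without DMSO_siNT 2-2VM, DMSO_siNT 4-2V or 4OHT_siSMARCA4 2-3V. COL19A1 had -1.07 (adjusted p = 0.21), and was called without 4OHT_siSMARCA4 4-2V (-1.76, adjusted p = 0.0348), which held 33 of its counts, and in the VM sets alone (-1.85, adjusted p = 0.0475). COL14A1 was not called, at 0.323, 0.447 and 0.630 CPM.

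The chains of type VI parted under knockdown. COL6A3 was at 1423, 2479 and 4472 CPM against 3830, 4968 and 5737 CPM in 4OHT_siNT and fell by 0.88 (SE 0.23, adjusted p = 0.0201, edgeR), a call lost without 4OHT_siSMARCA4 2-3VM (-0.82, adjusted p = 0.0524). The groups overlapped through 1 library, 4OHT_siSMARCA4 4-2V. COL6A1 was at 3904, 4632 and 5230 CPM and COL6A2 at 4398, 5058 and 6777 CPM, and their values of -0.09 (SE 0.20) and -0.17 (SE 0.14) were not called.

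COL10A1 fell from 13.2, 18.6 and 22.6 CPM to 2.07, 4.66 and 10.5 CPM with the groups apart (log2 -1.75, SE 0.37, adjusted p = 0.00473, edgeR). COL7A1 fell from 401.3, 499.2 and 732.3 CPM to 144.8, 302.9 and 505.6 CPM with overlap (log2 -0.87, SE 0.25, adjusted p = 0.0283). That call was lost without 4OHT_siNT 4-1VM, 4OHT_siNT 4-2VM, 4OHT_siSMARCA4 4-2VM or the unlabelled library (adjusted p 0.0605 to 0.0754). COL8A1 fell by 0.45 (SE 0.12, adjusted p = 0.0198). COL8A2 (-0.70, SE 0.68) and COL13A1 were not called.

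Each gene can be read across both comparisons. Of the 14 genes higher in senescence, 5 were lower after knockdown, namely COL10A1, COL4A5, COL4A6, COL6A3 and COL7A1, and 9 were not called, among them COL4A1, COL4A2, COL5A3, COL6A1 and COL6A2. Of the 10 genes lower in senescence, COL11A1, COL16A1, COL1A2 and COL8A1 were lower again after knockdown and 6 were not called. COL1A1, COL3A1 and COL5A1 were called lower after knockdown and not called in senescence. For all 3 the senescence call turns on DMSO_siNT 4-2V as given above, since without it COL1A1 and COL3A1 were lower and COL5A1 higher, and COL5A1 was also higher without DMSO_siNT 2-2VM. COL11A2, COL12A1 and COL9A3 were called in neither.

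Cells with SMARCA4 knocked down were also set against DMSO_siNT, a comparison that shares libraries with both others. In 4OHT_siSMARCA4 over DMSO_siNT, 10 of 30 collagen genes were higher (33.3%, against 23.3% of all genes tested) and 13 lower (43.3%, against 27.3% of all genes tested), with a median of -0.03 beside -0.04 over all genes tested. COL11A1 was at 6.14% of its mean DMSO_siNT level (log2 -4.01, SE 0.27, adjusted p = 2.72e-10, edgeR), COL1A2 at 12.7% (log2 -2.98, SE 0.25) and COL1A1 at 24.7% (log2 -2.02, SE 0.28). COL8A2, COL14A1 and COL9A2 had the next largest falls after COL11A1, with log2 values of -3.88, -3.81 and -3.56. Few reads set these sizes, since their means in 4OHT_siSMARCA4 were 0.131, 0.468 and 0.412 CPM. No library of that group held more than 4, 11 and 11 counts of them. COL10A1, COL5A3 and COL7A1 remained above DMSO_siNT by 3.76 (SE 0.51), 2.90 (SE 0.28) and 2.41 (SE 0.26), and COL6A1 and COL6A2 by 1.10 (SE 0.21) and 0.92 (SE 0.14), each with no overlap between the groups. Single libraries set the size for some, as COL10A1 had 4.48 without DMSO_siNT 4-2V and COL14A1 -3.22 without DMSO_siNT 2-1V.

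Some genes that rose in senescence did not differ from DMSO_siNT once SMARCA4 was knocked down. COL6A3 had a mean of 2614 CPM against 2632 CPM, a log2 fold change of -0.01 (SE 0.23, adjusted p = 0.977, edgeR), and COL4A6 12.3 CPM against 11.1 CPM (0.13, SE 0.32, adjusted p = 0.753). A missed call does not show equal levels. Within the VM sets alone the values were -0.48 for both, not called. COL5A1 had -0.43 (adjusted p = 0.266), and was called lower without DMSO_siNT 4-2V (-0.65, adjusted p = 0.0029) and in the VM sets alone (-1.10, adjusted p = 0.00227). Of the 23 calls in this comparison, 19 held in the VM sets alone, and COL19A1, COL24A1, COL4A1 and COL4A5 lost theirs there, at 0.74, 0.19, 0.26 and 0.079. The same 4 calls were the ones lost in at least 1 fit that left out a single library. COL19A1 lost its call without 4OHT_siSMARCA4 4-2V (2.37 with it and 1.68 without, adjusted p = 0.0582) and had 4.10 without DMSO_siNT 2-2VM, COL24A1 without DMSO_siNT 2-2V or the unlabelled library (adjusted p up to 0.0559), COL4A1 without DMSO_siNT 2-1V, 4OHT_siSMARCA4 2-3V or the unlabelled library (adjusted p up to 0.0571), and COL4A5 without DMSO_siNT 2-2V, 4-2V, 4-2VM or 4-3VM or any 4OHT_siSMARCA4 library but 4-2VM (adjusted p up to 0.0944). COL18A1, not called at 0.49 (adjusted p = 0.0701), was called without DMSO_siNT 2-2VM or 4OHT_siSMARCA4 4-3V (adjusted p 0.0486 and 0.0167).

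Some pairs of chains that share a trimer had ratios that differed between the groups. COL1A1 and COL1A2 form the type I heterotrimer, in which alpha 1 chains outnumber the alpha 2 chain. Counts per kb of exon gave a ratio of COL1A1 to COL1A2 between 1.47 and 2.47 in DMSO_siNT, between 3.40 and 3.84 in 4OHT_siNT, and between 2.69 and 4.999 in 4OHT_siSMARCA4. Both 4OHT groups lay above DMSO_siNT and overlapped each other. The ratio of COL5A1 to COL5A2, partners in type V, was 0.259 to 1.17, 1.82 to 2.07 and 0.755 to 1.66 in the same order, with 4OHT_siNT above both other groups. COL6A3 to COL6A1 was 0.237 to 0.550 in DMSO_siNT, the highest value being that of 4-2V, 0.234 to 0.274 in 4OHT_siNT and 0.0938 to 0.220 in 4OHT_siSMARCA4, which lay below both. COL4A2 to COL4A1 stayed between 0.817 and 1.22 over all 18 libraries. COL6A2 to COL6A1 was 3.33 in DMSO_siNT 4-2V and between 1.087 and 1.432 in the other 17. Exon lengths set the size of these ratios but not the order of libraries. With coding lengths the mean ratio of COL1A1 to COL1A2 was 1.47, 2.85 and 2.96 in the 3 groups, in place of 1.89, 3.67 and 3.81.

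**Figure D4:**
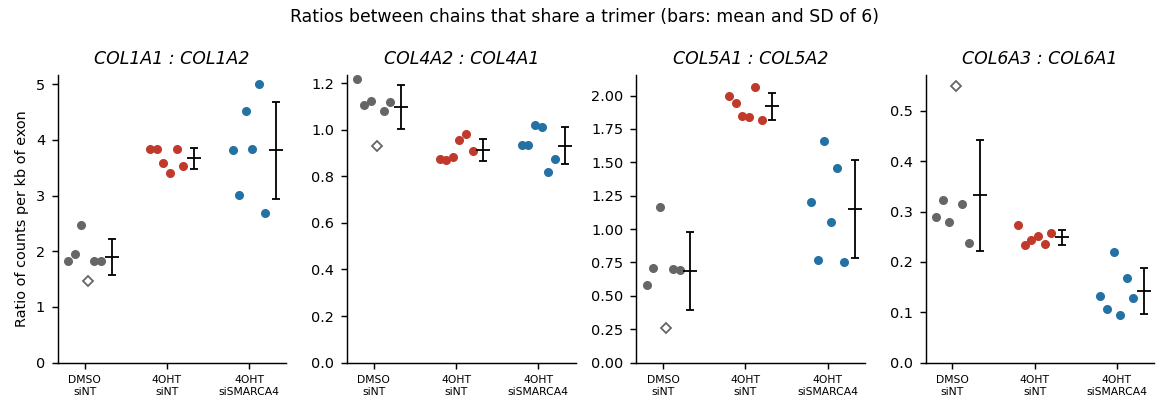
Ratio of counts per kilobase of exon between chains that share a trimer, in each library (points; open diamond, DMSO_siNT 4-2V), with the mean and SD of 6. COL1A1 over COL1A2 is 1.47 to 2.47 in DMSO_siNT and at least 2.69 in both 4OHT groups, COL5A1 over COL5A2 peaks in 4OHT_siNT, and COL6A3 over COL6A1 is lowest in 4OHT_siSMARCA4.

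The 2 siRNAs against SMARCA4 were compared in a fit with treatment and siRNA number, each against the non-targeting siRNA of the same number in 4OHT-treated cells. Of the collagen genes, 0 differed between siRNAs at an adjusted p under 0.05, and over all genes 0.0146% did. All 12 genes that fell after knockdown had negative values with both siRNAs, but they were called from these same libraries, so the shared sign is no separate support. In this fit COL11A1, COL16A1 and COL1A1 were called lower with each siRNA. COL8A1, COL4A5, COL4A6 and COL10A1 were called with siRNA 2 only, and COL1A2, COL3A1 and COL7A1 with siRNA 4 only. COL5A1 and COL6A3 were called with neither. COL11A1 had -2.01 (adjusted p = 0.00119, edgeR) with siRNA 2 and -2.51 (adjusted p = 0.00118) with siRNA 4, and COL16A1 had -0.95 and -1.33. COL1A1 had -1.28 (adjusted p = 0.0499) and -1.55 (adjusted p = 0.0391). COL7A1 had -0.25 with siRNA 2 (adjusted p = 0.703) and -1.57 with siRNA 4 (adjusted p = 0.0117), and the difference of 1.31 was not called (adjusted p = 0.394). COL3A1 had -0.53 and -1.62 with a difference of 1.09 (adjusted p = 0.583). COL6A1 had 0.10 and -0.29 and COL6A2 -0.01 and -0.34, none of them called. In fits of 1 siRNA at a time, siRNA 4 alone called 0 collagen genes lower after knockdown, where only 4 genes of 13213 were called in all. With siRNA 2 alone 14 of 31 tested were lower, against 13.9% of all genes, and 11 of the 12 calls held, COL7A1 being lost.

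The machinery that makes, crosslinks, binds and cuts collagen was read from 6 lists with 55 genes, of which 50 were tested. In senescence 21 were higher and 14 lower, where 23.9% and 28.9% of all genes tested were. After knockdown 1 was higher and 13 lower, where 4.99% and 5.65% of all genes tested were, with a median log2 fold change of -0.14 over the lists.

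Of 15 genes for hydroxylation and glycosylation of the chains, 6 rose and 3 fell in senescence, and 1 rose and 1 fell after knockdown. Lysyl hydroxylases PLOD1, PLOD2 and PLOD3 rose by 0.76, 0.87 and 0.40, the prolyl 4-hydroxylase subunit P4HA2 by 0.92, and COLGALT2, a collagen galactosyltransferase at 6.22 CPM in DMSO_siNT, fell by 2.21 (SE 0.20, adjusted p = 2.94e-08, edgeR). After knockdown P4HA3 rose by 1.39 (SE 0.33, adjusted p = 0.00975) and P3H3, a prolyl 3-hydroxylase family member, fell by 0.65. Of 10 genes for folding and secretion, 3 rose and 2 fell in senescence, led by MIA2 with 0.74, a cargo receptor at ER exit sites. The procollagen chaperone gene FKBP10 was higher in senescence (0.50) and lower after knockdown (-0.51), and SERPINH1, the collagen chaperone HSP47, was called in neither, with -0.29 and -0.42.

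Of 6 tested genes for propeptide removal outside the cell, 3 rose and 3 fell in senescence, and 3 fell after knockdown. PCOLCE, which enhances removal of the C-propeptide, was at 257.1 CPM in DMSO_siNT, 183.9 CPM in 4OHT_siNT and 85.8 CPM in 4OHT_siSMARCA4, and it fell in both comparisons (-0.48, and -1.10 with SE 0.15 and adjusted p = 0.000104, edgeR). PCOLCE2 had the largest change of the list in senescence, at -2.79. BMP1 and ADAMTS3, proteases for the propeptides, rose in senescence (0.54 and 2.13) and fell after knockdown (-0.54 and -1.15).

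Lysyl oxidases, the crosslinking enzymes, had 0 of 5 higher and 4 lower in senescence, where LOX and LOXL1 fell by 1.57 and 1.61, and 3 lower after knockdown, where LOXL3, LOXL4 and LOXL1 fell by 1.43, 1.37 and 0.68. LOX itself had -0.16 after knockdown and was not called. Of 8 tested collagen receptors, the integrin chains ITGA1, ITGA2 and ITGA11 and the uptake receptor MRC2 rose in senescence, by 1.63, 1.069, 1.48 and 0.79, and ITGA10 fell by 1.51 (adjusted p = 0.00209, edgeR). ITGA1 and ITGA11 fell after knockdown (-1.03 and -1.56), together with the discoidin receptor DDR2 (-0.53), which had also fallen in senescence (-0.61).

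Collagen-cleaving proteases rose in senescence with 5 of 6 tested genes and 0 lower. MMP1, interstitial collagenase, went from a mean of 486.1 CPM to 6769 CPM (log2 3.80, SE 0.22, adjusted p = 4.17e-11, edgeR), and MMP14, a membrane collagenase, from 790.7 to 2885 CPM (1.87). MMP9 had the largest change, 3.94, at a mean of 0.752 CPM in 4OHT_siNT. After knockdown MMP1 stood at 8477 CPM and was not called (0.32, SE 0.20, adjusted p = 0.328), while the cysteine protease gene CTSK (-0.57) and the low-count MMP8 (-1.06) were lower.

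**Figure D5:**
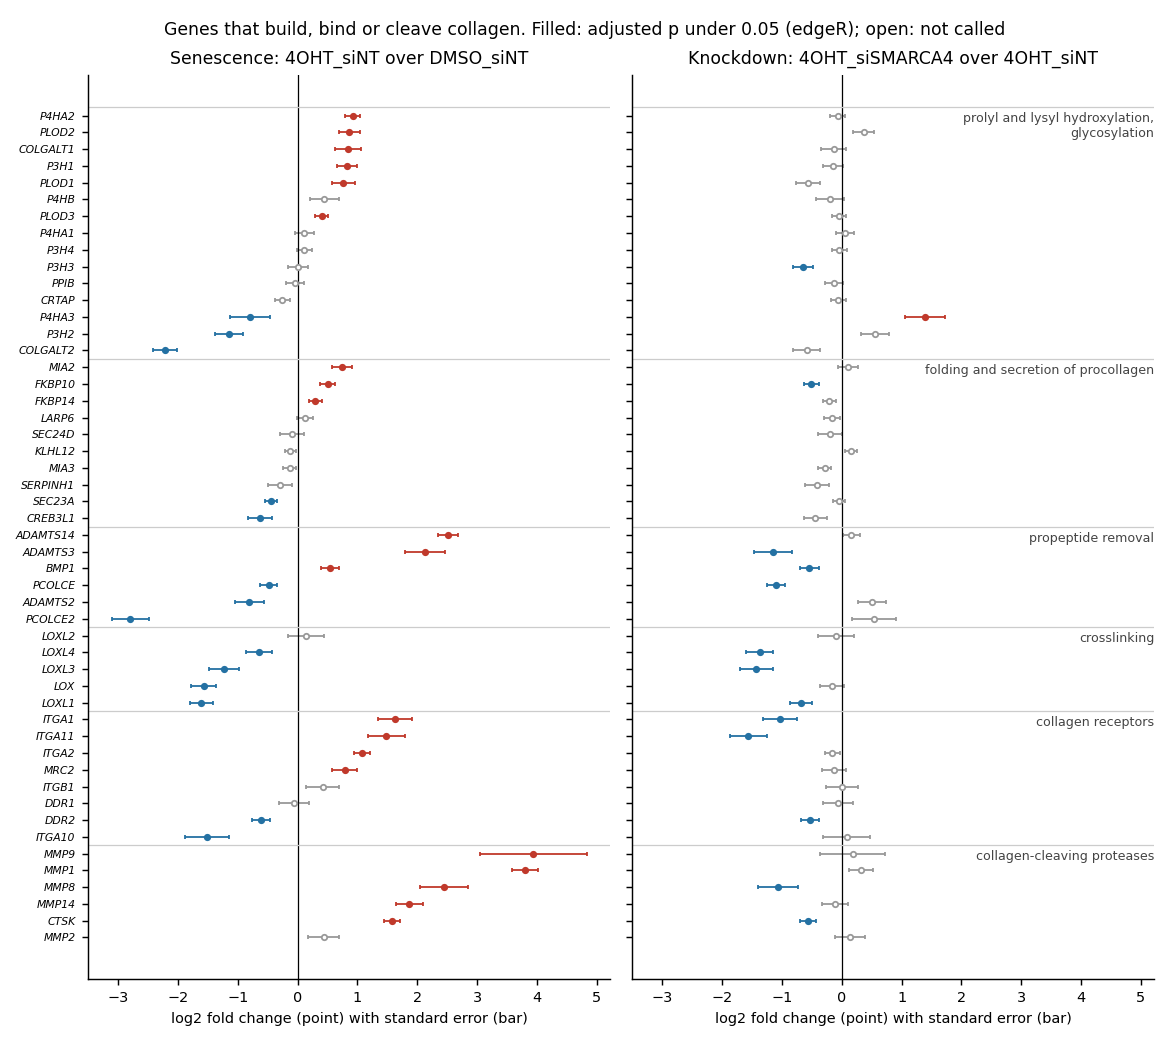
Log2 fold change (point) with its standard error (bar) of the 50 tested genes that build, bind or cleave collagen, by list, in senescence (left) and after SMARCA4 knockdown (right). In senescence 21 are called higher and 14 lower, and after knockdown 1 higher and 13 lower, with 4 of 5 and then 3 of 5 lysyl oxidases among the lower.

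The 14 collagen genes that were not tested held few reads. COL22A1, a FACIT collagen of tissue junctions, had the most, reaching 6 counts in DMSO_siNT, 30 in 4OHT_siNT and 6 in 4OHT_siSMARCA4. COL17A1, the hemidesmosomal collagen of keratinocytes, reached 10 counts in a library and COL21A1 reached 8. The cartilage gene COL2A1 had at most 4 counts and COL9A1 at most 3. COL25A1, COL23A1 and COL28A1 reached 6, COL26A1 5, COL6A6 and COL4A3 3, COL4A4 2, and COL20A1 and COL6A5 1. COL22A1 passed the filter of the fit by siRNA, with -2.42 after knockdown (SE 0.69, adjusted p = 0.0414, edgeR) for siRNA 2 and -0.96 (adjusted p = 0.542) for siRNA 4, and the difference was not called (adjusted p = 0.856). When every gene with at least 1 count was tested, all 44 collagen genes entered. In senescence 16 were higher and 9 lower (36.4% and 20.5%, against 15.3% and 17.9% of all genes). After knockdown 13 were lower and 0 higher, where 2.81% and 2.53% of all genes were.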

How the data were processed

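RNA from IMR90 ER:RAS fibroblasts was sequenced from poly(A)-selected, strand-keeping libraries. Per the labels the authors used STAR 2.7.8a and DESeq2 1.36.0 with hg38. The counting program and its use of strand are not given in the sources used here. The authors deposited raw counts for each gene symbol, with no normalization, in 36 columns (library by lane). The 2 lanes were summed to 18 libraries, of which 17 matched a labelled sample and 1 only its group (the unlabelled library). The labels list 29 samples, and the others were not analysed here.

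Genes were filtered with filterByExpr (minimum count 10), scaled by TMM and compared by edgeR 4.0.16 (quasi-likelihood test; R 4.3.3). The 18 libraries entered a single model of the 3 groups, without covariates, and the Benjamini-Hochberg adjustment ran over 13136 genes. The siRNAs were compared over 13659 genes. Standard errors came from the F statistic. The steps were tested on simulated data. Alternatives covered scaling, DESeq2 1.42.0, low-count filters, groups in the fit, sets, siRNAs and single libraries. VM sets with the unlabelled library, and the 2 groups alone without DMSO_siNT 4-2V, were added after seeing the data.

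Members, lists and named genes were chosen with earlier results of these data known. Values per library are given for the 3 genes of each kind highest per kilobase and the 4 largest rises and falls in each comparison among called genes above 1 CPM in either arm, and for others that a sentence needs. From each list the called gene with the largest change was named. Positions and lengths came from GENCODE (GRCh38), promoters from RefSeq, which matched 32 of 44 genes. The replicate check of set names is in the closing section.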

Additional observations from a re-analysis of the deposited data

Results flagged for a closer look

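In a group of 6 libraries, 1 was taken as standing apart when its gap to the nearest other exceeded 0.625 of the spread from lowest to highest log2 level. This was examined in 93 groups (30 genes and the collagen share, in 3 groups each), where chance flags about 1 in 20, and it held in 11. DMSO_siNT 4-2V was the lowest of its group in 6 of them: COL1A1 (3155 CPM, others 10231 to 14727), COL1A2 (2585 CPM, others 6712 to 8434), COL4A2 (239.0 CPM, others 696.9 to 1281), COL5A1 (91.0 CPM, others 398.0 to 916.4), COL18A1 (162.1 CPM, others 371.2 to 497.6) and COL11A2 (0.120 CPM, others 1.04 to 1.98). This library also had little ESR1 and low HRAS, as given in the report.

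4OHT_siSMARCA4 4-2VM was the lowest of its group for COL11A1 (0.692 CPM, others 2.06 to 3.31), COL1A2 (442.3 CPM, others 850.3 to 998.1) and COL4A5 (52.0 CPM, others 71.1 to 81.1). 4OHT_siSMARCA4 4-3V was the lowest for COL9A3 (0.165 CPM, others 1.01 to 1.35), and 4OHT_siNT 2-1VM the highest for COL5A2 (293.1 CPM, others 264.5 to 274.2). No cause was tested.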

How the results depend on the processing

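Under the alternatives run, no called collagen gene changed direction. Counts moved by over 1.5 times as follows, and the cause was not tested unless the construction shows it. In 4OHT_siNT over DMSO_siNT, 6 of 30 genes were lower with siRNA 4 alone (median 0.97), where 19.4% of all genes were. When 10 counts were asked of every library, only 22 were tested and 6 were lower, where 29.3% of all genes were. In 4OHT_siSMARCA4 over 4OHT_siNT, 0 were lower with siRNA 4 alone, where 4 genes were called in all, and 2 with the set as replicate block. In the VM sets with the unlabelled library 1 was higher (COL15A1), where 13.6% of all genes were. In 4OHT_siSMARCA4 over DMSO_siNT, 6 of 29 were higher with the 2 groups alone (20.7%, against 19.8% of all genes). The median there was -0.48 in the VM sets, -0.56 in those with the unlabelled library and -0.36 with siRNA 2 alone. Leaving out each library gave 14 to 15 higher and 9 to 12 lower, 0 higher and 9 to 16 lower, and 7 to 11 higher and 13 to 14 lower, with medians of 0.38 to 0.73, -0.70 to -0.54 and -0.14 to 0.05 in the 3 comparisons. Over all genes, those fits called 22.3% to 27.95% higher and 26.6% to 30.3% lower in senescence. After knockdown they called 2.89% to 11.7% higher and 4.02% to 12.9% lower. Against DMSO_siNT the shares for 4OHT_siSMARCA4 were 21.6% to 28.65% higher and 25.8% to 30.5% lower.

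Deviations of 15 same-set pairs correlated at -0.29 to 0.30 (median 0.04), beside -0.30 to 0.29 (median 0.001) for 81 pairs from other sets. This gave no sign of pairing by set name, but weak correlations of few pairs cannot exclude a set effect. With the replicate block, COL10A1 and COL11A1 were the 2 collagen genes called lower after knockdown, where 1.13% of all genes were. In senescence 11 higher and 10 lower were called, against 15.2% and 17.5% of all genes, and COL18A1 (0.61), COL4A1 (0.90) and COL4A2 (0.65) were not called.

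Values not called changed sign with siRNA 4 alone for COL3A1 (0.031) and COL12A1 (0.27) in senescence, for COL15A1 (-0.33) after knockdown, and for COL5A1 (0.068) against DMSO_siNT. With siRNA 2 alone COL6A1 after knockdown was 0.10. Against DMSO_siNT, COL6A3 was 0.043 with all genes above 0 counts, 0.062 with the block and 0.46 with siRNA 4 alone, and -0.23 to 0.12 when 1 library was left out. COL4A6 was -0.48 in the VM sets, -0.56 with the unlabelled library, -0.36 with siRNA 2 alone, -0.027 for the 2 groups without DMSO_siNT 4-2V, and -0.064 (without DMSO_siNT 4-2V) to 0.51 when 1 library was left out of the fit of 3 groups. Depth limits the genes with few counts.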
